A study of Mus musculus with 36 samples.

Results

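The genes described here are the Zfp genes of the mouse, which code for zinc finger proteins. Members were chosen by symbol alone: protein-coding genes of RefSeq on GRCm38 that lie on an autosome and whose symbol is Zfp followed by a digit, with Zfp36 left out. The rule found 387 genes among 49943 genes on chromosomes 1 to 19, X and Y. A Zfp gene with 2 or more further Zfp genes within 200 kb of its span was called clustered, which gave 192 clustered and 195 remaining genes. The measurements were single-nucleotide positions of single-strand breaks (SSBs, nicks in 1 DNA strand) and of apurinic/apyrimidinic (AP) sites, at which a base has been lost. The labels name 2 male C57BL/6J mice aged 24 months, untreated as far as stated, as the source of 6 tissues: sperm, bone marrow, brain, liver, heart and the mononuclear cells of peripheral blood (PBMCs). Each DNA sample gave 1 SSB and 1 AP library, 24 libraries in all, so a tissue had 2 libraries per assay. Red cells were lysed in bone marrow, PBMCs came from a density gradient, and sperm were the motile cells of the epididymal tail, whose DNA was isolated with another kit than that of the other tissues. For sperm, kit and cell type therefore cannot be told apart.

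Most Zfp genes code for proteins with an array of C2H2 zinc fingers, each finger folding around a zinc ion and reading a short stretch of DNA. Many of the clustered genes arose by tandem duplication and carry a KRAB domain, which recruits the co-repressor KAP1 (Trim28) and the histone methyltransferase Setdb1 to transposable elements. Genes outside the clusters include old, conserved regulators such as Zfp143, an activator at many housekeeping promoters, and proteins that do not act on promoters, such as Zfp598, a ubiquitin ligase of collided ribosomes.

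An SSB library listed between 225011 and 1041983 positions, an AP library between 460719 and 963258. Density was expressed as LPKM, the number of positions in a span divided by its length in kb and by all positions of the library, and then multiplied by 1e+06. The median Zfp gene was 18012 bp long and held a median of 3 SSB and 5 AP positions per library, so single genes of this length were measured with little precision. Summed over the merged spans, which cover 13.0 Mb, a library held 1441 to 6568 SSB positions and 2786 to 5977 AP positions. Every p-value below measures the spread between libraries of 2 animals, and all libraries share 1 genome and 1 unknown read mapping.

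Sequences are shown for starts of 4 Zfp genes, because positions were densest there. They run 5′ to 3′ on the strand of the gene, from 250 bases before to 50 after the RefSeq start on GRCm38.p6, and capitals mark the nucleotides at which an SSB or AP position was listed in any of the 24 libraries, on either strand. Zfp143, Zfp710 and Zfp871 were taken from the genes named by rule, and Zfp709, a clustered gene on chromosome 8, was chosen after its values were seen. The starts of Zfp536, Zfp385b and Zfp423, named by rule for their many positions, are not shown. They held 7 SSB and 1 AP positions in Zfp536, 1 and 0 in Zfp385b, and 0 and 0 in Zfp423. Zfp143 (chr7:110061452-110061751, plus strand) held 8 SSB and 2 AP positions. Zfp710 (chr7:80024564-80024863, plus strand) held 7 SSB and 0 AP positions. Zfp871 (chr17:32788238-32788537, minus strand) held 0 SSB and 5 AP positions. Zfp709 (chr8:71881818-71882117, plus strand) held 7 SSB and 8 AP positions at 15 different nucleotides.
Zfp143: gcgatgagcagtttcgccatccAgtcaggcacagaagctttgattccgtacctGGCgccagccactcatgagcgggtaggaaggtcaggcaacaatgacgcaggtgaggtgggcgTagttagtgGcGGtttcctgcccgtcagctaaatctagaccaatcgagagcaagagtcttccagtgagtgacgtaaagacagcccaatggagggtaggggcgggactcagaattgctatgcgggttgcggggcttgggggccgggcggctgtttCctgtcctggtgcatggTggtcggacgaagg
Zfp710: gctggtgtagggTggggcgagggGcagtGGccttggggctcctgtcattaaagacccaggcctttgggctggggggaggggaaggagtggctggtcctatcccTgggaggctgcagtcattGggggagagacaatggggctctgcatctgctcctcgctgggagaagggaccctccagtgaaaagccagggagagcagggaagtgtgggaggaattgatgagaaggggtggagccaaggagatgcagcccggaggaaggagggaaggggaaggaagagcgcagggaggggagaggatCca
Zfp871: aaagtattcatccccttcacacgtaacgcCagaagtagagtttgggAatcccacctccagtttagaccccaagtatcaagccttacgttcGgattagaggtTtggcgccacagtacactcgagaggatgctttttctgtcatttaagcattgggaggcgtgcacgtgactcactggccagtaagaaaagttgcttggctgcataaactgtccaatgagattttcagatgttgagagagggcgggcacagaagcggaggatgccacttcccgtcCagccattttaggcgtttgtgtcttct
Zfp709: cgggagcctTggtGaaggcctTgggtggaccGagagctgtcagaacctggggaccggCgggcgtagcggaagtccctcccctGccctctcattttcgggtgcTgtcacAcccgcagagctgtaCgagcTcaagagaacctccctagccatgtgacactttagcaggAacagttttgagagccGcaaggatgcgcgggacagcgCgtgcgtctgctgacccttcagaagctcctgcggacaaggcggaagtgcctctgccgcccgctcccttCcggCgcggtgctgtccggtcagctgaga

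Clustered Zfp spans held fewer lesions than the remaining Zfp spans in all 24 libraries. The LPKM of SSBs in clustered spans was lowest in sperm replicate 1 (0.321), had a median of 0.364 and reached 0.398 in bone marrow replicate 1, with a mean of 0.367 ± 0.0195 (SD, n = 12). In the remaining spans it lay between 0.514 and 0.569, with a median of 0.532 and a mean of 0.536 ± 0.0160. The ranges did not overlap. The clustered spans had 0.683 times the density of the remaining ones, a log2 ratio of −0.55 ± 0.06 that was below 0 in 12 of 12 libraries (two-sided exact sign-flip permutation test, p = 0.000488, the smallest p that 12 libraries allow; adjusted p = 0.000610 over 10 ratios). For AP sites the LPKM was 0.353 ± 0.0125 in clustered and 0.524 ± 0.0104 in remaining spans (n = 12), with ranges of 0.330 to 0.383 and 0.505 to 0.536. Their log2 ratio was −0.57 ± 0.07, or 0.673 times, again below 0 in 12 of 12 libraries (exact sign-flip permutation test, p = 0.000488, adjusted p = 0.000610). Clustered spans covered 4.31 Mb and remaining spans 8.74 Mb. Among Zfp genes of 10 to 50 kb the SSB log2 ratio was smaller, −0.38 (exact sign-flip permutation test, p = 0.000488).

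**Figure D1:**
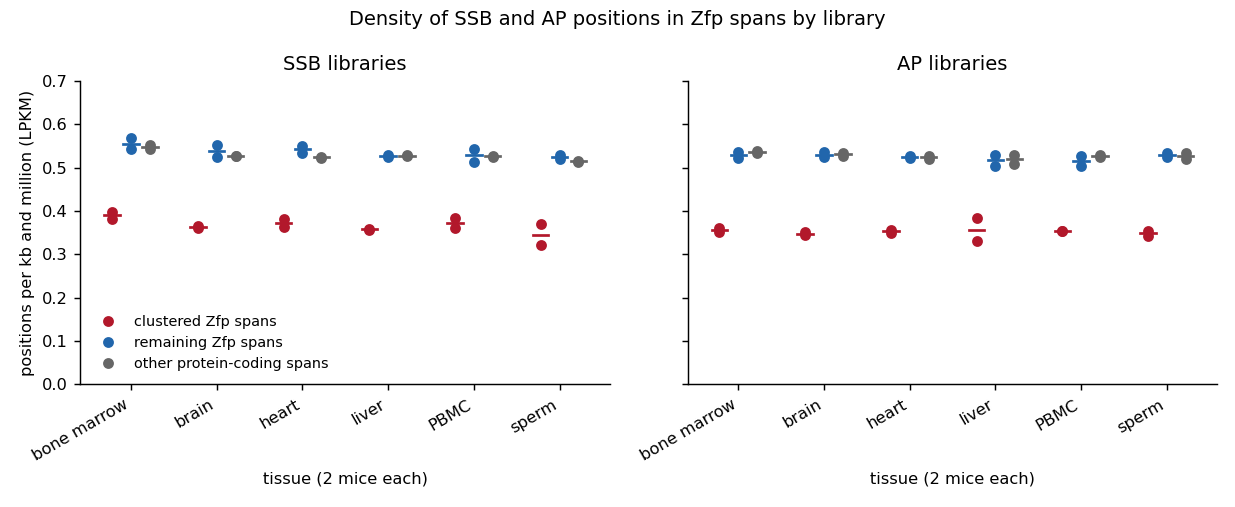
LPKM of merged clustered Zfp spans, remaining Zfp spans and all other autosomal protein-coding spans, by tissue, with SSB libraries on the left and AP libraries on the right. Points are libraries and bars the mean of 2; the clustered spans sit at 0.321 to 0.398, below both other groups in every library, and the tissues overlap.

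Summed over merged spans, the remaining Zfp genes lay near the level of the 20278 other autosomal protein-coding genes. The merged spans of those other genes had 0.528 ± 0.0104 LPKM for SSBs and 0.527 ± 0.00802 for AP sites (n = 12). The log2 ratio of remaining Zfp spans to them was 0.02 ± 0.03 for SSBs, above 0 in 8 libraries and below in 4. For AP sites it was −0.01 ± 0.02, above 0 in 6 and below in 6. Such sums weigh long genes most, and gene by gene the remaining Zfp genes were lower. Over the pooled libraries their median was 0.519 LPKM for SSBs and 0.528 for AP sites, against 0.643 in other genes for both assays. All Zfp spans together were lower than the other genes by a log2 ratio of −0.14 ± 0.03 for SSBs and −0.17 ± 0.02 for AP sites, in 12 of 12 libraries each (exact sign-flip permutation test, p = 0.000488, adjusted p = 0.000610 for both). The size depended on 1 cluster and on the reference. Without the cluster that held most positions, on chromosome 4, SSBs gave −0.090 and AP sites −0.13 on the log2 scale, still below 0 with an exact permutation p of 0.000488. Against the 9815 other genes within the 10th to 90th length percentile of Zfp genes (8010 to 57391 bp), SSBs gave a log2 ratio of −0.36 and AP sites one of −0.35. Against the 5361 other genes within 1 Mb of a Zfp gene it was −0.33 for both assays. Both references were compared with all Zfp spans together, not with the remaining spans alone.

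Gene by gene, 72.4% of the 387 Zfp genes lay below the median LPKM of the other genes for SSBs and 75.5% for AP sites, over the pooled libraries. Among clustered genes these shares were 83.3% and 85.4%, and among remaining genes 61.5% and 65.6%. The middle 80% of clustered genes ran from 0.185 to 0.796 LPKM for SSBs, and that of remaining genes from 0.202 to 1.11. Density did not fall step by step with the number of neighbours. For SSBs it was 0.553 ± 0.0163 LPKM over the 146 Zfp genes with no further Zfp gene within 200 kb and 0.400 ± 0.0440 over the 49 with 1. With 2 to 4 neighbours (86 genes) it was 0.320 ± 0.0260, with 5 to 8 (70 genes) 0.422 ± 0.0328, and with 9 or more (36 genes) 0.360 ± 0.0488 (n = 12 for each). The AP values had the corresponding levels of 0.544, 0.372, 0.311, 0.393 and 0.373. Each of the 4 classes with a neighbour lay below the other genes in 12 of 12 libraries of both assays.

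Individual clusters differed widely in density. Clustered genes whose spans were within 200 kb of each other formed 29 clusters, of which 20 had a mean SSB density below that of the other genes and 20 a lower AP density. In 1 of the former, the 6 genes on chromosome 11 from Zfp354c to Zfp354a, the SSB density was 0.999 times that of the other genes. The cluster with most members holds 23 genes on chromosome 13 (chr13:67038594-67827000, Zfp712 to Zfp273). It had 0.292 LPKM for SSBs, between 0.249 and 0.341 over libraries, and 0.292 for AP sites, or 0.553 and 0.554 times the level of the other genes. The 18 genes on chromosome 17 (chr17:21383707-22456689, Zfp677 to Zfp946) had the lowest density among clusters of 5 or more genes in both assays, 0.249 LPKM for SSBs and 0.216 for AP sites. All 12 libraries of each assay were below the other genes in both of these clusters. In contrast, the 15 genes on chromosome 7 from Zfp84 to Zfp146 (chr7:29768552-30169775) reached 0.449 and 0.421 LPKM. The 12 genes on chromosome 17 from Zfp871 to Zfp101 (chr17:32765496-33394637) had 0.305 and 0.324.

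The highest cluster of 5 or more genes in both assays lies elsewhere on chromosome 7 (chr7:127233061-127615785, 8 genes from Zfp553 to Zfp629). Its SSB density was 0.965 LPKM, between 0.570 and 1.5 over libraries, and exceeded that of the other genes in 12 of 12 libraries. Its AP density was 0.710, lower than the other genes in 4 libraries. Its merged spans cover 70.2 kb. The cluster on chromosome 4 (chr4:146449030-147849126, 12 genes from Zfp992 to Zfp933) has 1025 kb of merged span, more than any other. It had 0.293 LPKM for SSBs and 0.318 for AP sites. Without it, the log2 ratio of clustered to remaining spans was −0.46 for SSBs and −0.53 for AP sites, and the exact permutation p stayed at 0.000488.

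**Figure D2:**
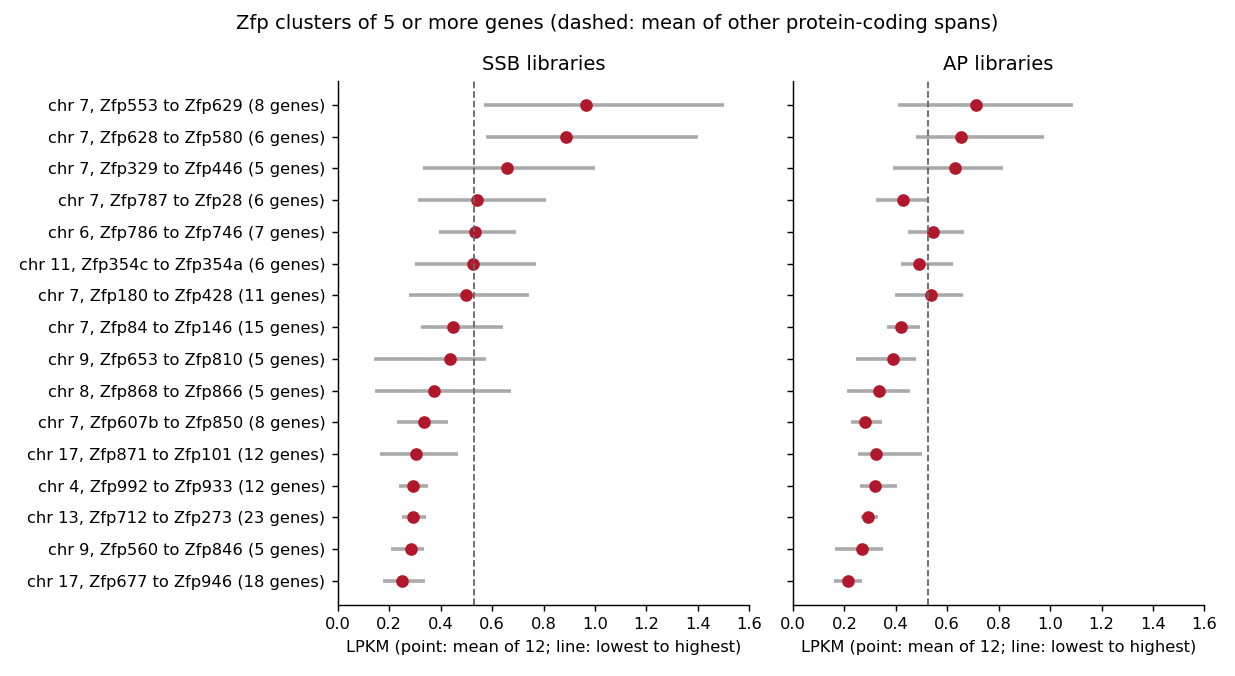
LPKM of the Zfp clusters that hold 5 or more genes, SSB libraries on the left and AP libraries on the right, ordered by SSB density and named by chromosome and by their outermost genes. Points are means of 12 libraries, lines run from the lowest to the highest library and the dashed line is the mean of the other protein-coding spans (0.528 and 0.527); the clusters range from 0.249 to 0.965 for SSBs.

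Clustered spans held more stretches without any position than remaining Zfp spans or other genes. Of 4214 consecutive 1 kb bins in clustered spans, 1243 (29.5%) held no position of either assay in any of the 24 libraries, against 13.8% of 8644 bins in remaining spans and 11.7% of 961748 bins in other genes. The share was 24.5% in olfactory and 49.7% in vomeronasal receptor genes, so it was not particular to clustered Zfp genes. The mean number of positions per bin, summed over the 24 libraries, was 5.02 in clustered spans, 7.57 in remaining spans and 7.52 in other genes. The chromosome 4 cluster had 49.7% of such bins and the 23-gene cluster on chromosome 13 had 27.4%, while the high cluster on chromosome 7 had 11.9%. When SSB density was taken only over bins with at least 1 AP position, and the reverse, clustered spans had 0.524 LPKM for SSBs and remaining spans 0.636. This alternative, chosen after seeing the data, moved the log2 ratio of clustered to remaining spans to −0.28 for SSBs and −0.27 for AP sites, each with an exact permutation p of 0.000488. The ratio of all Zfp spans to other genes moved to −0.010 for SSBs (p = 0.317) and −0.027 for AP sites (p = 0.00146, exact sign-flip permutation tests). Whether reads of near-identical gene copies were dropped before the positions were listed was not tested.

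**Figure D3:**
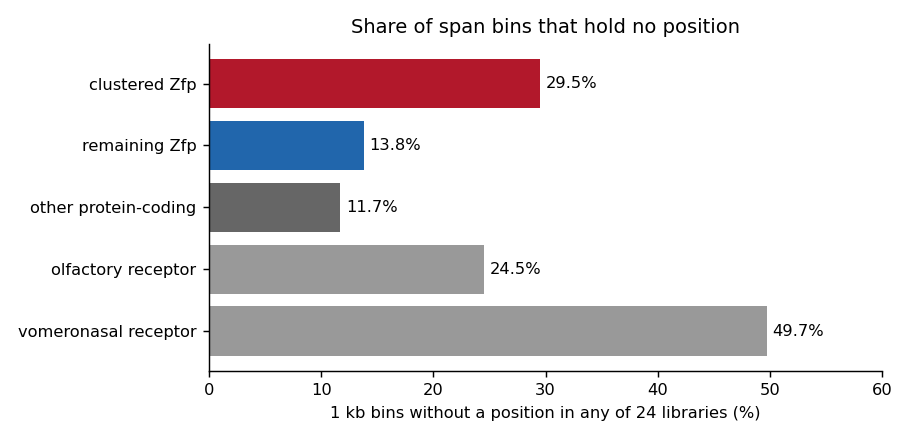
Share of 1 kb bins within merged gene spans that held no SSB or AP position in any of the 24 libraries, in percent, for 5 gene groups. Bars are shares of all bins of a group. Clustered Zfp spans reach 29.5%, against 13.8% in remaining Zfp spans, 24.5% in olfactory receptor spans and 49.7% in vomeronasal receptor spans.

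The extreme case was a group of 5 Zfp genes on distal chromosome 2. Zfp968, Zfp965, Zfp966, Zfp967 and Zfp973 are 10529 to 12818 bp long, lie between 175372034 and 176681090, and held 0 positions in all 24 libraries. Such empty genes were not particular to the Zfp genes. Over 10 kb they made up 5 of 330 Zfp genes (1.52%) and 89 of 12992 other genes (0.685%). A count of 0 allows up to 3 positions, which over the pooled libraries is at most 0.0516 LPKM for SSBs and 0.0323 for AP sites in the shortest of them, Zfp965. All 1309 bins of 1 kb in that stretch were empty, and so were its 14 protein-coding genes, these 5 included. The listed positions nearest to the 5 genes lay at 175178121 and 176701103, which left a stretch of 1.52 Mb without any. By the 200 kb rule these 5 genes count among the remaining genes, and without them clustered over remaining spans gave a log2 ratio of −0.56 in SSB and −0.58 in AP libraries. Next lowest was Zfp433 on chromosome 10, with 1 SSB and 2 AP positions, followed by the neighbours Zfp97 (3 and 4) and Zfp960 (5 and 11) on chromosome 17. At the other end, Zfp646 on chromosome 7 had the highest AP density of any member, 1.51 LPKM, with 1.56 for SSBs. These lowest and highest genes were named after their values were seen.

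Receptor gene families, which also lie in tandem arrays, lay on both sides of the clustered Zfp genes. Olfactory receptor spans (1104 genes, which code for odorant receptors) had 0.576 ± 0.0330 LPKM for SSBs and 0.565 ± 0.0231 for AP sites. Vomeronasal receptor spans (352 genes, which code for pheromone receptors) had 0.159 ± 0.0131 and 0.180 ± 0.0118 (n = 12). The spans compared differ in length, with a median of 950 bp in olfactory, 960 bp in vomeronasal and 15906 bp in clustered Zfp genes. Clustered Zfp spans were 0.637 times the olfactory level for SSBs and 0.625 times for AP sites, and 2.31 and 1.97 times the vomeronasal level. Each of these 4 ratios had its direction in 12 of 12 libraries (exact sign-flip permutation test, p = 0.000488, adjusted p = 0.000610). Within bins that held a position of the other assay, the log2 ratio to olfactory receptors shrank from −0.65 to −0.078 for SSBs (exact permutation p = 0.0469) and from −0.68 to −0.032 for AP sites (p = 0.235), while the ratio to vomeronasal receptors was 0.90 and 0.71. Receptor spans shorter than 1 kb hold no such bin, so these values rest on the longer receptor spans.

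Lesions were concentrated at the starts of Zfp genes. In the 280 Zfp genes over 10 kb with a known strand, the window of 1 kb either side of the start held 0.927 ± 0.239 LPKM for SSBs and 0.651 ± 0.0595 for AP sites (n = 12). The rest of the span held 0.405 ± 0.0145 and 0.399 ± 0.00893. The log2 excess of the start was 1.15 ± 0.36 for SSBs. It ran from 0.60 and 0.75 in sperm to 1.72 and 1.68 in bone marrow, and the other genes had a similar order, from 0.66 in sperm replicate 2 and PBMC replicate 1 to 1.58 in bone marrow replicate 1. For AP sites the excess was 0.70 ± 0.14. In the 10268 other genes the excess was 1.02 ± 0.30 for SSBs and 0.54 ± 0.11 for AP sites. Their start windows (1.04 and 0.741 LPKM) and the rest of their spans (0.501 and 0.507) were on average both denser than in Zfp genes. The Zfp excess was larger by 0.13 ± 0.12 for SSBs and 0.16 ± 0.11 for AP sites, in 11 of 12 libraries each (exact sign-flip permutation test, p = 0.00146 and adjusted p = 0.00220 over 6 window and strand values, for both). This did not hold in genes over 20 kb, where the differences were 0.041 (p = 0.541) and 0.068 (p = 0.108, exact permutation).

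Clustered and remaining genes were nearer to each other at the start than in the body. The SSB density of the start window was 0.877 ± 0.208 LPKM in 148 clustered genes, 0.982 ± 0.291 in 132 remaining genes and 1.04 ± 0.227 in other genes (n = 12). For AP sites it was 0.670 ± 0.0786, 0.629 ± 0.0704 and 0.741 ± 0.0629. Over their own bodies, this was a log2 excess of 1.53 ± 0.35 for SSBs in clustered and 1.02 ± 0.40 in remaining genes, and of 1.22 ± 0.20 against 0.43 ± 0.15 for AP sites. In other genes it was 1.02 ± 0.30 and 0.54 ± 0.11, so only the clustered group had a mean excess above that of other genes. The split of the windows was made after seeing the data and was not tested.

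Toward their ends, pooled Zfp genes rose less than other genes. In other genes the last 2 kb held 0.729 ± 0.0434 LPKM for SSBs, a log2 excess of 0.54 ± 0.07 over the rest of the span, and 0.759 ± 0.0308 for AP sites, an excess of 0.58 ± 0.05. In Zfp genes the last 2 kb held 0.427 ± 0.0504 and 0.465 ± 0.0276 LPKM, an excess of 0.07 ± 0.18 for SSBs and 0.22 ± 0.09 for AP sites (n = 12). The Zfp excess was smaller by 0.47 ± 0.18 on the log2 scale for SSBs (−0.47) and by 0.36 ± 0.10 for AP sites (−0.36), in 12 of 12 libraries each (exact sign-flip permutation test, p = 0.000488, adjusted p = 0.00146). In many KRAB zinc finger genes the last exon codes for the whole finger array. Clustered genes had an end excess of 0.24 ± 0.17 for SSBs and 0.43 ± 0.13 for AP sites, and remaining genes 0.12 ± 0.24 and 0.24 ± 0.16. The pooled excess of 0.07 and 0.22 lay below that of both groups, and neither group alone was tested against the other genes.

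**Figure D4:**
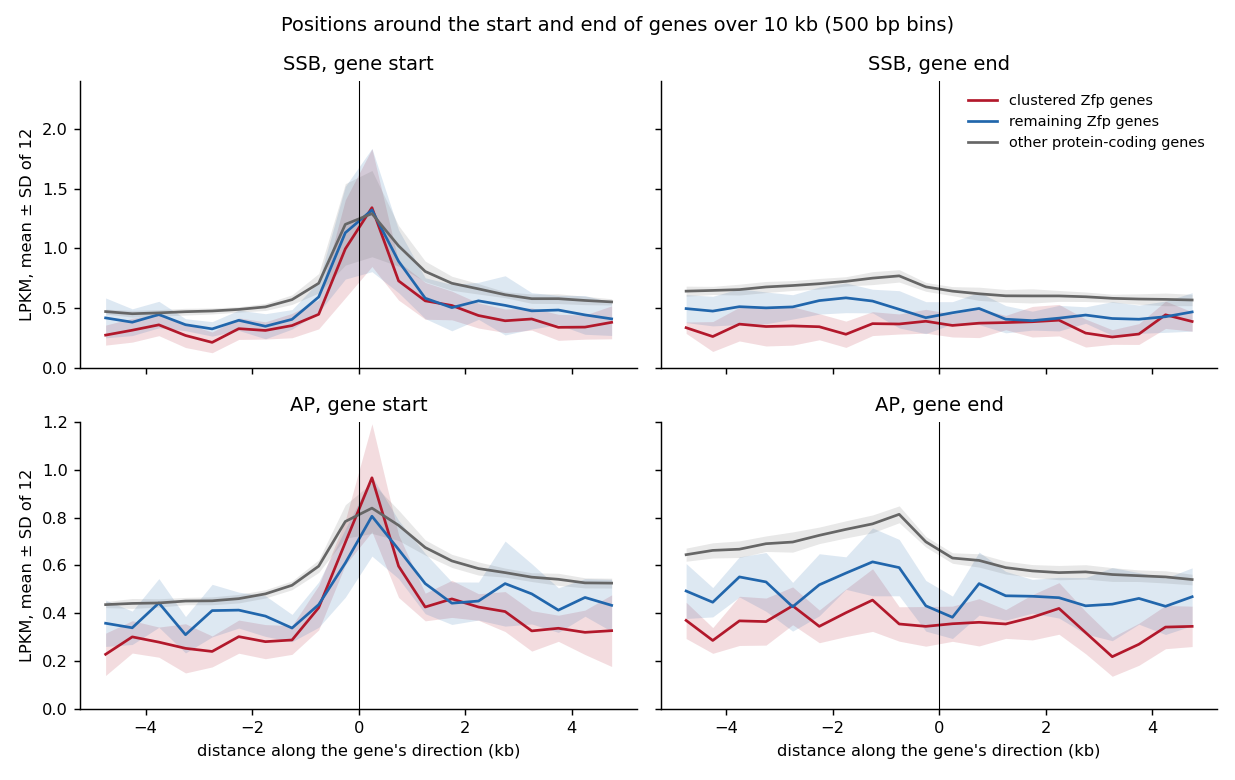
LPKM in 500 bp bins within 5 kb of the start (left) and end (right) of genes over 10 kb, SSBs above and AP sites below, as a function of distance along the direction of the gene. Lines are means of 12 libraries and bands ± SD for clustered Zfp genes, remaining Zfp genes and other protein-coding genes. For SSBs the 3 groups come together just after the start (1.34, 1.32 and 1.29 LPKM). For AP sites the same bin holds 0.967, 0.806 and 0.840. In the last 500 bp both Zfp groups (0.389 and 0.419 for SSBs) lie below the other genes (0.677).

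RefSeq promoters of 300 bases matched 324 of the 387 Zfp genes. Their median GC content was 54.3%, against 56.7% in promoters of other genes, and they held a median of 13 CG dinucleotides, against 14. CG occurred at least 10 times in 212 of them (65.4%), against 58.5% of 16133 promoters of other genes. The dinucleotide reads the same on both strands, and overlapping matches cannot occur. Zfp promoters held 883 SSB positions in 275 promoters and 797 AP positions in 264, which over the pooled libraries is 1.65 and 0.929 LPKM, against 1.51 and 0.882 in other genes. Clustered genes had 1.67 LPKM for SSBs and 1.05 for AP sites in their promoters, remaining genes 1.62 and 0.797. The nucleotide listed on the strand of the lesion was C for 38.7%, G for 35.7%, T for 21.2% and A for 4.42% of SSB positions in Zfp promoters. For AP positions it was G for 40.3%, A for 34.6%, C for 15.7% and T for 9.41%, so purines, the bases most easily lost from DNA, made up most of them. In other promoters the shares were 38.9%, 37.1%, 18.6% and 5.30% for SSBs in the same order of bases, and 37.6%, 36.8%, 16.6% and 8.90% for AP sites. These shares are descriptions, and counting intervals cover counting error only.

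The strand of a position, as listed, was that of the gene for 55.0% ± 2.03 of SSB positions and 51.1% ± 1.04 of AP positions in Zfp spans with genes on 1 strand only (n = 12). The share exceeded that in other genes by 0.684 ± 1.11 percentage points for SSBs, in 8 of 12 libraries (exact sign-flip permutation test, p = 0.0581, adjusted p = 0.0581). For AP sites the difference was 0.761 ± 1.04 points, in 9 of 12 libraries (p = 0.0308, adjusted p = 0.0369, exact permutation test), and leaving out any of 5 single libraries put it past the threshold of 0.05. These were bone marrow replicate 1, heart replicate 1, liver replicate 1, PBMC replicate 1 and sperm replicate 2, with values of 0.615, 0.738, 0.668, 0.725 and 0.635 and p from 0.0537 to 0.0615 (exact permutation).

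No tissue difference was detected in the density of Zfp spans. The SSB density over all Zfp spans was 0.501 ± 0.0168 LPKM in bone marrow, 0.486 ± 0.00392 in heart, 0.480 ± 0.0121 in brain, 0.477 ± 0.0198 in PBMCs, 0.471 ± 0.00295 in liver and 0.465 ± 0.0164 in sperm (SD, n = 2 each). The highest and lowest tissue means differed by 0.11 on the log2 scale (exact permutation test over every pairing of libraries, p = 0.286, adjusted p = 0.889 over 8 values). For AP sites the tissue means ran from 0.462 ± 0.00974 in PBMCs to 0.472 ± 0.00443 in bone marrow, a difference of 0.030 (exact permutation p = 0.650, adjusted p = 0.889). Clustered spans, remaining spans and their ratio gave p-values between 0.336 and 0.965. Sperm did not separate from the other tissues either: its 2 libraries differed from the other 10 by −0.055 for SSBs and 0.0087 for AP sites on the log2 scale over all Zfp spans (exact permutation test, p = 0.152 and 0.576, where the smallest possible p is 0.0152). The SSB value moved with single libraries: it was −0.019 without sperm replicate 1 and −0.091 without sperm replicate 2, and over clustered spans −0.0064 and −0.21. Leaving out 1 library ended this for clustered SSB spans without sperm replicate 2 (0.28 between tissues, p = 0.0178) and for the clustered to remaining ratio of AP sites without liver replicate 2 (0.21, p = 0.0306, exact permutation, unadjusted).

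Single Zfp genes were tested in fits over all genes. Of the 387, 381 had a position in at least 20% of the libraries and were tested, and the 5 empty genes of chromosome 2 and Zfp433 were not. No Zfp gene passed an adjusted p of 0.05 between tissues in either assay (edgeR quasi-likelihood F test, Benjamini-Hochberg over all genes), where 0.125% of 38486 genes passed for SSBs and 0% of 41374 for AP sites. At an unadjusted p under 0.05 were 17 Zfp genes for SSBs and 16 for AP sites, or 4.46% and 4.20%, against 4.85% and 2.95% of all genes. DESeq2 called 0 Zfp genes in both. The smallest p for SSBs belonged to Zfp710, a C2H2 zinc finger gene on chromosome 7. Its SSB density was 1.11 ± 0.157 LPKM in bone marrow, 1.09 ± 0.183 in heart, 1.06 ± 0.0905 in liver, 0.768 ± 0.190 in sperm, 0.640 ± 0.0201 in PBMCs and 0.561 ± 0.0123 in brain (n = 2 each). Its adjusted edgeR p was 0.233, between 0.240 and 1 over 20 alternatives. Next were Zfp462, which is needed for brain development, and Zfp574, with adjusted edgeR p-values of 0.313 and 0.546. For AP sites the smallest p belonged to Zfp143, Zfp871 and Zfp707, each with an adjusted edgeR p of 1. The AP density of Zfp143 ran from 0.0931 ± 0.0407 LPKM in liver to 0.555 ± 0.255 in brain.

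Between SSBs and AP sites of the same DNA sample, 1 of 381 Zfp genes (0.262%) passed the threshold, against 0.745% of 41210 genes, and 0.590% passed with a lower SSB level. This was Zfp978, a clustered gene of 267146 bp on chromosome 4 (chr4:147124882-147392027). Its SSB densities were 0.359 and 0.317 LPKM in bone marrow, 0.342 and 0.416 in brain, 0.486 and 0.481 in heart, 0.411 and 0.385 in liver, 0.399 and 0.404 in PBMCs and 0.389 and 0.484 in sperm. Its AP densities were 0.577 and 0.503, 0.512 and 0.431, 0.499 and 0.502, 0.546 and 0.455, 0.477 and 0.463, and 0.435 and 0.530 in the same order. The SSB value was below the AP value in 12 of 12 DNA samples, although the ranges of the assays overlapped. The log2 difference was −0.35 ± 0.09 (SE; edgeR with the DNA sample as block, adjusted p = 0.0126, between 0.00766 and 0.522 over 20 alternatives). It did not pass with the library total as the only scaling (−0.26, adjusted p = 0.137), with size factors of DESeq2 (−0.27, adjusted p = 0.114), with DESeq2 itself (−0.28, adjusted p = 0.146) or in libraries thinned to equal depth (adjusted p = 0.522). Nor did it pass without bone marrow replicate 1 (adjusted p = 0.0788) or replicate 2 (adjusted p = 0.0584), although the log2 difference was −0.31 in both fits and between −0.40 and −0.31 over all 12 leave-outs. The direction of calls over all genes moved with the scaling: 64 were higher and 243 lower in SSB libraries with TMM, and 108 higher and 65 lower with library totals. The spans of Zfp991 and Zfp988 lie inside that of Zfp978, and their log2 differences were −0.27 (adjusted p = 0.845) and −0.09 (adjusted p = 0.975, edgeR).

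The genes with most positions were long, and all 5 were the same in both assays. Zfp536, a repressor of neuronal differentiation that spans 456017 bp on chromosome 7, held 1829 SSB and 2990 AP positions, between 62 and 339 SSB positions per library. Its density was 0.724 ± 0.0777 LPKM for SSBs and 0.739 ± 0.0649 for AP sites (n = 12). Zfp423, a regulator of cerebellar and adipocyte development, was higher with 0.927 ± 0.101 and 0.907 ± 0.0726, and Zfp469, whose human counterpart is mutated in brittle cornea syndrome, had 0.984 ± 0.0983 and 0.912 ± 0.121. Zfp385b had 0.510 ± 0.0634 and 0.535 ± 0.0529, and Zfp407 0.526 ± 0.0413 and 0.584 ± 0.0509. Other long genes were low: the longest of all, Zfp804b with 575349 bp, had 0.178 ± 0.0237 and 0.173 ± 0.0294, and Zfp804a, whose human counterpart lies at a schizophrenia risk locus, had 0.209 ± 0.0416 and 0.222 ± 0.0611.

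Of Zfp57, Zfp809, Zfp568, Zfp708 and Zfp932, known to repress transposable elements or imprinted genes, only Zfp57 had means above the merged spans of other genes (0.528 and 0.527 LPKM). It exceeded them by less than its SD. The median single gene among the other genes had 0.643 LPKM in both assays over the pooled libraries. That is above the mean of Zfp57 for SSBs and below it for AP sites. Zfp57, which maintains imprints, had 0.606 ± 0.367 LPKM for SSBs and 0.660 ± 0.272 for AP sites, from 31 and 57 positions in all. Zfp809, which silences retroviruses in embryonic cells, had 0.239 ± 0.137 and 0.240 ± 0.125. Zfp568, a repressor of a placental Igf2 transcript, had 0.458 ± 0.178 and 0.487 ± 0.157, and Zfp708 and Zfp932, which act on transposable elements, had 0.335 ± 0.145 and 0.209 ± 0.186 for SSBs. The highest AP tissue mean was 0.453 ± 0.124 for Zfp708 (brain) and 0.314 ± 0.126 for Zfp932 (bone marrow, n = 2 each). Zfp42 (Rex1), a marker of pluripotent cells, had 0.305 ± 0.223 and 0.473 ± 0.241. Among the highest of the genes with a known role were Zfp335, a regulator of neural progenitors, with 1.40 ± 0.497 and 1.0 ± 0.378, and Zfp598 with 1.22 ± 0.824 and 1.17 ± 0.403. None of these genes was called between tissues or assays.

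The genes of the KAP1 co-repressor pathway, a list of 19 that includes Trim28, Setdb1, the HP1 genes Cbx1, Cbx3 and Cbx5, and the maintenance methyltransferase Dnmt1, were treated in the same fits. None of the 19 tested passed between tissues for SSBs or AP sites, or between the assays, by edgeR or by DESeq2. At an unadjusted edgeR p under 0.05 were 3 of them for SSBs by tissue, 0 for AP sites by tissue and 3 between SSBs and AP sites, where 4.85%, 2.95% and 9.93% of all genes were.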

How the data were processed

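For every library the authors deposited the lesion positions, each 1 nucleotide wide, with its strand and an unscaled count. Replicates were kept apart. The builds mm10 and GRCm38 come from the submitters' processing notes; the aligner, its treatment of reads with several matches and the filters are not given in the sources used here. No genome or exon annotation was used, so whole gene spans were counted and neither mappability nor GC content could be corrected. The RNA samples of the series were not analysed here.

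Each position was counted once. Overlapping spans were merged for sums. Library-level log2 ratios were tested with two-sided exact sign-flip tests (12 libraries), tissues with exact permutation over pairings, and p-values were adjusted by Benjamini-Hochberg within families. Per-gene fits used edgeR 4.0.16 (TMM, quasi-likelihood F test) with DESeq2 1.42.0 as alternative in R 4.3.3, over all genes with a position in at least 20% of libraries; SSB against AP had the DNA sample as block, since the labels pair the libraries. The main edgeR fits were tried on simulated data, with changes placed only in genes with more positions than the median Zfp gene. This does not show how well changes in short Zfp genes would be found. Window values used genes over 10 kb. Positions had a count above 1 in few cases, and counting intervals and floors cover counting error only.

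The members, gene lists and rules were chosen with earlier results of these data known. Named genes were, by rule, those with most positions, smallest p over tissues, a call between assays or a known role. Alternatives were the scaling, the filter, thinning, summed counts, the neighbour radius (100 or 500 kb), gene length, the reference genes, the replicate block and each library left out.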

Additional observations from a re-analysis of the deposited data

Results flagged for a closer look

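The log2 ratio of Zfp spans to other genes differed between the assays. It was −0.14 ± 0.03 for SSBs and −0.17 ± 0.02 for AP sites (SD, n = 12), and the difference within the DNA sample was 0.036 (two-sided exact sign-flip permutation test, p = 0.00977, adjusted p = 0.0109). It lay between 0.030 and 0.042 when each library was left out. The difference in the ratio of clustered to remaining spans was 0.022 (exact permutation p = 0.394, adjusted p = 0.394). The groups of 2 libraries were too small for a search for outlying samples.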

How the results depend on the processing

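Over 160 alternatives other than leaving out a library, 150 values were kept. For tested values this meant the same direction and side of the threshold, on either side of it. For counts of called Zfp genes it meant the same count. Restricting sums to 1 kb bins with a position of the other assay (chosen after seeing the data) moved Zfp against other genes for SSBs to −0.010 (p = 0.317) and clustered Zfp against olfactory receptors for AP sites to −0.032 (p = 0.235), both exact permutation tests. Bins without a position of the other assay leave both sums, and the share of the change due to this was not tested. With genes over 20 kb the start windows gave 0.041 for SSBs and 0.068 for AP sites. For sperm, relative to other genes the remaining SSB spans gave 0.0049, and at equal depth the clustered AP spans gave 0.014, both of opposite sign to the reported values; the cause was not tested. The count of Zfp genes called between SSBs and AP sites was 0 with DESeq2 size factors, library totals, DESeq2 or equal depth, and 1 without the filter, with the 80% filter, with summed counts and with no replicate block. Over all genes the 307 calls became 179 with DESeq2 size factors, 173 with library totals, 43 with DESeq2 and 5 at equal depth, and 359 without the filter, 330 with the 80% filter, 309 with summed counts and 419 with no replicate block. For SSBs by tissue the 48 calls over all genes became 15 with library totals, 4 with DESeq2, 10 at equal depth, 16 with summed counts and 35 without the filter, and 51 with DESeq2 size factors and 66 with the 80% filter.

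Leaving out each library, the strand share ranged from 0.518 to 0.837 points for SSBs and from 0.615 to 0.941 for AP sites, and the clustered SSB tissue difference from 0.13 to 0.28. The clustered to remaining tissue difference for AP sites ranged from 0.065 to 0.21. The sperm difference for SSBs ranged from −0.091 to −0.019 over all spans and from −0.21 to −0.0064 over clustered spans. The sperm difference for AP sites ranged from −0.0086 to 0.026 over all spans and from −0.042 to 0.0066 over clustered spans. Calls between assays ranged from 0 (without bone marrow replicate 1 or 2) to 2 (without heart replicate 2, where Zfp831 was added). The SSB strand share passed the threshold without bone marrow replicate 1 (0.804), brain replicate 2 (0.837) or liver replicate 1 (0.799).

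No pairing of tissues by replicate number was seen. Correlations of deviations between same-numbered libraries ran from −0.0336 to 0.0233 for SSBs and from −0.188 to 0.131 for AP sites over 15 pairs of tissues. They cover genes with a mean of at least 20 positions, where counting error is large. They therefore cannot decide whether same-numbered libraries came from the same mouse. With the replicate block 0 Zfp genes were called in either assay, calls over all genes were 59 for SSBs and 0 for AP sites, and the tissue differences of all Zfp spans had p = 0.353 and 0.5 (exact permutation).

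With a median of 3 SSB and 5 AP positions per Zfp gene and library, a difference in a single short gene was hard to detect.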

Other observations

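Zfp spans did not stand out in how often 1 nucleotide was listed in several libraries. Of 34421 different SSB nucleotides in Zfp spans 0.561% were listed in 2 or more libraries, against 0.532% in other genes, and of 53094 AP nucleotides 1.48%, against 1.49%. A count above 1 was given for 0.540% of SSB and 0.468% of AP positions in Zfp spans, against 0.574% and 0.450% in other genes. Chromosome 7 held 92 of the 387 Zfp genes, 70 of them clustered, chromosome 17 held 46 (33 clustered) and chromosome 13 held 37 (23 clustered).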
